A study of Mus musculus with 10 samples.

Results

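The interferon-induced GTPases described here are 9 mouse genes of the Gbp, Irg and Mx families, namely Gbp2, Gbp3, Gbp6, Gbp7, Igtp, Irgm1, Iigp1, Mx1 and Mx2. They were chosen by family, with earlier results of these data known, and found by gene symbol in the expression table of brain endothelial cells (BECs). Of the 9 genes, 8 were among the 14106 genes deposited. Mx1 was not among them and is not analysed here.

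BECs were enriched with CD31 microbeads from the dissociated cortex of 1 year old female mice and sequenced as bulk RNA. There were 10 libraries, of which 5 came from APP/PS1 mice and 5 from controls of the same age, labelled WT. APP/PS1 mice carry the mutant human transgenes APPSwe and PSEN1dE9, and both groups had the same C3H/BL6 background. The promoter that drives the transgenes, and whether a library came from 1 mouse or a pool, are not given in the sources used here, so p-values measure only the spread between libraries. The study asked how the transcriptome of the brain endothelium differs in APP/PS1 mice. Each control library was paired with the APP/PS1 library of the same replicate number.

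Large GTPases of these families are made in response to interferons. Type I interferon acts through a receptor formed by Ifnar1 and Ifnar2 and leads to a transcription factor complex that includes Stat2 and Irf9 and binds interferon-stimulated response elements (ISRE). Interferon gamma acts through Ifngr1 and Ifngr2 and induces genes through gamma-activated sites (GAS). Guanylate-binding proteins (Gbp) and the immunity-related GTPases (Irg) gather on the membranes of vacuoles that hold intracellular pathogens, and Mx proteins block the replication of viruses. Irgm1 and Igtp (also called Irgm3) are regulatory Irg proteins that keep the effector Irg proteins, such as Iigp1, inactive on the membranes of the cell itself.

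The promoters are shown first because genes of these families are known to respond to interferon through ISRE and GAS elements near their start sites. The RefSeq promoter table used here (build GRCm38.p6) covers 250 bases before to 50 bases after each start site, and promoters of 5 of the 8 measured genes were read from it, namely Gbp2, Gbp3, Gbp7, Igtp and Irgm1. Those of Gbp6, Iigp1 and Mx2 are not shown. The core of the ISRE was searched as 2 copies of GAAA with any 2 bases between them, on either strand (2 copies of TTTC on the other), and the GAS as TTCNNNGAA, which reads the same on both strands. All 5 genes had a promoter with the ISRE core (the table lists a further start of Gbp3 whose promoter held none), which was found in 3.44% of the 32851 promoters searched. The ISRE core is in capitals in the stretches below, each written 5′ to 3′ on the strand of the gene. The stretches of Gbp7, Gbp3 and Igtp lie outside annotated exons, whereas 22 of the 30 bases of Gbp2 and 30 of the 30 bases of Irgm1 lie in exons of the GENCODE annotation, which starts some transcripts further upstream.
Gbp7, chr3:142530236-142530335, plus strand: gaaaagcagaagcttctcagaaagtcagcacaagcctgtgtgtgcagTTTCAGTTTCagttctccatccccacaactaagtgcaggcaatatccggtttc
Gbp3, chr3:142559944-142560025, plus strand: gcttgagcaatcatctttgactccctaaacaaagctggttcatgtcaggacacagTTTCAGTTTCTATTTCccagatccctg
Gbp2, chr3:142620594-142620623, plus strand: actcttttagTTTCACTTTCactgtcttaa
Irgm1, chr11:48871428-48871457, minus strand: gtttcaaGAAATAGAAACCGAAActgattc
Igtp, chr11:58199456-58199555, plus strand: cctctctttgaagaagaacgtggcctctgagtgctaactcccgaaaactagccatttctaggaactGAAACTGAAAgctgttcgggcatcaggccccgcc

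The 3 Gbp genes of chromosome 3 carried the element in the TTTC orientation and the 2 Irg genes of chromosome 11 in the GAAA orientation. Gbp3 and Irgm1 each held a pair of ISRE cores that overlap in 4 bases, beginning at −45 and −39 from the start of Gbp3 (−1 being the base before the start) and at −30 and −24 from that of Irgm1. The single core began at −59 in Gbp2, −53 in Gbp7 and −34 in Igtp. A GAS was found in Gbp7, at −106 and −87, and in Igtp, at −45. None of these GAS matches overlapped an ISRE core. The GAS pattern was in 8.30% of all promoters and both patterns together in 0.454%. In Igtp the GAS began 11 bases before the ISRE core, and the same spacing of 11 bases was found in 4 of its relatives on chromosome 11, namely Irgm2, Tgtp1, Tgtp2 and Gm12185. A match is a description of the letters and does not show that a factor was bound in these cells.

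In control BECs the 8 genes spanned a wide range of levels. Per kilobase of exon, Gbp2 had 50.5 ± 4.04 CPM (read counts scaled to library size, mean ± SD, n = 5) and Gbp3 had 46.4 ± 0.983 CPM, and the ranges of the libraries overlapped between these genes. Gbp7 followed with 22.0 ± 1.07 CPM per kb and Igtp with 21.3 ± 2.18 CPM per kb, whose ranges also overlapped. Irgm1 (14.2 ± 0.657 CPM per kb), Iigp1 (10.6 ± 0.478 CPM per kb), Mx2 (5.79 ± 0.398 CPM per kb) and Gbp6 (0.446 ± 0.0344 CPM per kb) then followed, each with a range that did not overlap that of the next. The guanylate-binding proteins of chromosome 3 and both regulatory Irg genes stood above the effector Iigp1, and Gbp6 stood far below the others. The level of Gbp6 is uncertain, since 70.7% of the 50-base words in its transcripts also occur in transcripts of other genes. Of the 8 genes, 7 lay above the median level of all genes, 4.30 log2 CPM, and Gbp6 lay below it. Gbp6 had as few as 58 adjusted counts in a library (counts after the authors' batch correction), whereas Gbp3 had at least 3479.

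**Figure D1:**
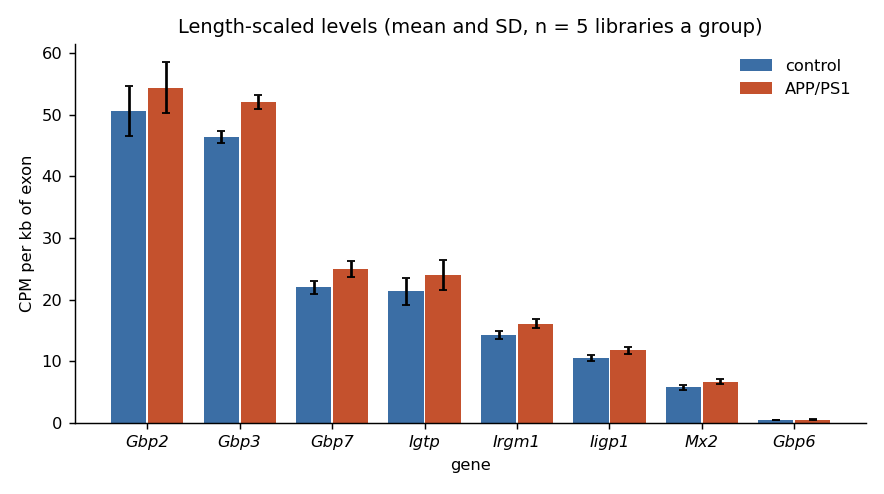
Mean level of the 8 GTPases in CPM per kilobase of merged exon in control and APP/PS1 BECs, with SD over 5 libraries a group. Gbp2 and Gbp3 stood highest in both groups, and Gbp6 was at 0.446 CPM per kb in control and 0.526 CPM per kb in APP/PS1 BECs. The Gbp6 level is uncertain, as its transcripts share 70.7% of their 50-base words with other genes.

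The levels were then compared between APP/PS1 and control BECs. The mean of all 8 genes was higher in APP/PS1 BECs, by 7.66% for Gbp2 to 17.8% for Gbp6 on the scale of deposited log2 CPM, but none passed the test. With limma and Benjamini-Hochberg adjustment over 14106 genes, 0 of 8 genes had an adjusted p under 0.05, and 0.0% of all genes did. The smallest adjusted p of the 8 was 0.544 (Gbp3) and that of any gene was 0.195. At an unadjusted p under 0.05, 6 of the 8 genes were higher in APP/PS1 BECs, against 2.13% of all genes that were higher at that threshold. In the count of directions, 8 of 8 had a mean difference above 0 (48.2% of all genes), 6 were higher in at least 4 of 5 pairs (20.7% of all genes) and 3 were higher in all 5 pairs (2.99% of all genes). The median log2 difference was 0.17 over the 8 genes and −0.00377 over all genes. In bulk RNA, a change in the level per cell and a change in the share of cells that express a gene cannot be told apart.

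The count of 6 genes rested on the full set of pairs and on the scaling. With replicate 1 left out it was 1, with replicate 4 left out it was 2, and it was 3 when any of replicates 2, 3 and 5 was left out. Scaled by library size alone, 1 gene was under this threshold and 1 was higher in all 5 pairs, while all 8 means stayed above 0. The count was 5 with a variance trend (a prior variance that follows gene level) or with voom (values weighted by precision). Gbp6 was then at an unadjusted p of 0.0822 and 0.0712.

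Gbp3, a guanylate-binding protein encoded on chromosome 3 (142560026 to 142573209, GRCm38, plus strand), differed most evenly. Its control libraries, in the order of replicates 1 to 5, had 7.23, 7.26, 7.20, 7.25 and 7.28 log2 CPM. Its APP/PS1 libraries had 7.43, 7.39, 7.45, 7.41 and 7.37 log2 CPM. Each APP/PS1 library was above every control library. The log2 difference was 0.16 (SE 0.0450, unadjusted p = 0.0113, adjusted p = 0.544), with a 95% interval of 0.05 to 0.28. In a model without the replicate block, that is without the pairing, the same log2 difference had an adjusted p of 0.00922, and Gbp3 was the 1 gene of the 8 that passed there, against 1.37% of all genes that passed and were higher. The authors' batch correction had set pair means nearly equal, yet that model counts 8 residual degrees of freedom instead of 4. Its SE (0.0244) and its p-values are therefore too small. Groups did not overlap, with APP/PS1 higher, in 2.91% of all genes. With pair means nearly equal, this nearly restates being higher in all 5 pairs (2.99% of all genes), here and for the genes below.

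Gbp2 and Gbp7, the neighbours of Gbp3 on chromosome 3, varied more between pairs. Gbp7 (142530342 to 142550149, plus strand) had 6.87, 6.94, 6.94, 7.06 and 6.92 log2 CPM in control libraries. In APP/PS1 libraries it had 7.20, 7.13, 7.14, 7.00 and 7.16 log2 CPM. Pair 4 went the other way, so the groups overlapped, and the log2 difference was 0.18 (SE 0.0658, adjusted p = 0.592). Gbp2 (142620602 to 142638008, plus strand), one of the guanylate-binding proteins recruited to the vacuole of the parasite Toxoplasma, had 6.82, 7.13, 7.00, 6.93 and 7.05 log2 CPM in control libraries. In APP/PS1 libraries it had 7.24, 6.95, 7.08, 7.16 and 7.03 log2 CPM. The groups overlapped, pairs 2 and 5 were lower in APP/PS1, and the log2 difference was 0.11 (SE 0.0926, adjusted p = 0.845, 95% interval −0.12 to 0.34). Without replicate 1 the log2 difference of Gbp2 was 0.03, and without replicate 2 it was 0.18.

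Gbp6, on chromosome 5 (105270702 to 105293698, minus strand), was the lowest of the set. Control libraries had 1.34, 1.36, 1.56, 1.30 and 1.48 log2 CPM. APP/PS1 libraries had 1.72, 1.69, 1.49, 1.76 and 1.57 log2 CPM. The groups overlapped through pair 3, and the log2 difference of 0.24 (SE 0.0904, adjusted p = 0.600) was the highest of the 8 genes. Of the 50-base words in its transcripts, 70.7% also occurred in transcripts of other genes, mainly Gm43302, and 29.0% of its exon bases were shared, so its counts are uncertain. The corresponding share of 50-base words was 12.7% in Gbp7, 11.8% in Igtp and between 0.379% and 4.38% in the other 5 measured genes. The strand setting of the counting is not given in the sources used here.

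The 3 Irg genes stood in the middle of the range. Irgm1, a regulatory Irg protein linked to autophagy (chromosome 11, 48861968 to 48871683, minus strand), had 6.31, 6.42, 6.45, 6.30 and 6.35 log2 CPM in control libraries. In APP/PS1 libraries it had 6.60, 6.49, 6.46, 6.62 and 6.56 log2 CPM. The groups did not overlap (APP/PS1 higher, as in 2.91% of all genes), but they touched, since pair 3 differed by only 0.00241 log2 units. The log2 difference was 0.17 (SE 0.0634, adjusted p = 0.592).

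Iigp1, the effector also called Irga6 (chromosome 18, 60376027 to 60392634, plus strand), had 5.86, 5.98, 5.98, 5.89 and 6.01 log2 CPM in control libraries. In APP/PS1 libraries it had 6.18, 6.06, 6.06, 6.16 and 6.03 log2 CPM. The groups did not overlap (APP/PS1 higher, as in 2.91% of all genes), and the gap was smallest in pair 5. The log2 difference was 0.15 (SE 0.0621, adjusted p = 0.622).

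Igtp, the second regulatory gene (chromosome 11, 58199556 to 58207591, plus strand), had 5.28, 5.42, 5.56, 5.28 and 5.58 log2 CPM in control libraries. In APP/PS1 libraries it had 5.73, 5.60, 5.46, 5.74 and 5.43 log2 CPM. Pairs 1 and 4 differed most, pairs 3 and 5 went the other way, and the groups overlapped. The log2 difference was 0.17 (SE 0.116, adjusted p = 0.815, 95% interval −0.12 to 0.45), and it was 0.09 without replicate 4. Igtp overlaps Irgm2 in 162 exon bases on the same strand.

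Mx2 (chromosome 16, 97535308 to 97560900, plus strand) is annotated as a polymorphic pseudogene, because many laboratory strains carry an allele without a full reading frame. Control libraries had 4.41, 4.53, 4.39, 4.27 and 4.32 log2 CPM. APP/PS1 libraries had 4.57, 4.44, 4.59, 4.71 and 4.66 log2 CPM. Pair 2 went the other way and the groups overlapped, and the log2 difference was 0.21 (SE 0.0835, adjusted p = 0.622). Mx1, its neighbour, gave no value.

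**Figure D2:**
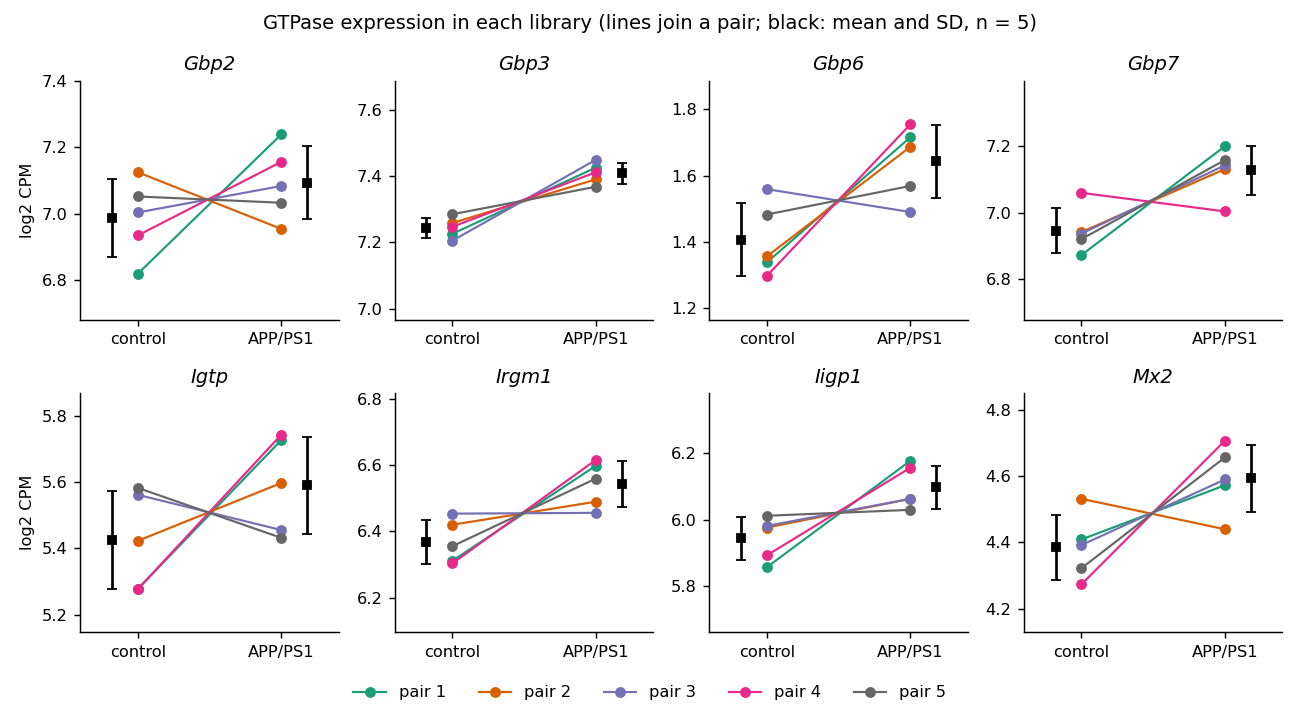
Deposited log2 CPM of each GTPase in each library. Lines join the control and APP/PS1 library of a pair, black squares and bars are the group mean and SD (n = 5), and all panels span the same number of log2 units. The lines of Gbp3, Irgm1 and Iigp1 slope upward in all 5 pairs, whereas 1 or 2 lines slope downward in each of the other genes. The lines cross near 1 point because the authors' batch correction set the mean of each pair nearly equal.

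The 5 pairs did not contribute alike. The median log2 difference of the 8 genes was 0.32 in pair 1, with all 8 genes higher in APP/PS1, and 0.29 in pair 4, with 7 higher. In pairs 2, 3 and 5 it was 0.11, 0.08 and 0.08, with 6 genes higher in each. The median of all genes lay between −0.00871 and 0.00138 in every pair.

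The other interferon-induced GTPases (16 listed, 12 measured) were read beside the 8 genes. Of the 12, 10 had a mean difference above 0 and 2 below, with a median log2 difference of 0.08, which was 0.16 without replicate 3. None was higher in all 5 pairs, and 0 had an adjusted p under 0.05. Only Gbp8 had an unadjusted p under 0.05, and it was lower in APP/PS1, with 0.57 to 0.81 log2 CPM in APP/PS1 and 0.81 to 1.04 log2 CPM in control libraries (log2 difference −0.24, SE 0.0810, unadjusted p = 0.0244, adjusted p = 0.569), against 5.91% of all genes that were lower at that threshold. Gbp8 had as few as 36 adjusted counts in a library.

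The 4 measured Gbp genes of chromosome 3 had log2 differences from 0.11 to 0.18, with Gbp5, which takes part in inflammasome assembly, at 0.15 (SE 0.0833, adjusted p = 0.761). Those of chromosome 5 spread from −0.24 to 0.24, with Gbp4 at 0.01 (SE 0.0879) and Gbp9 at 0.08 (SE 0.0517) between Gbp8 and Gbp6. Gbp9 and Gbp5 were the most abundant of all 20 GTPases on the log2 CPM scale, which is not scaled by length, with 7.69 and 7.36 log2 CPM in control BECs. A test of the difference between the loci was not made.

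The 7 measured Irg genes of chromosome 11 were Irgm1, Igtp, Irgm2, Ifi47 (Irgd), Tgtp1 and Tgtp2 (Irgb6) and Gm12185. All 7 had a mean difference above 0, between 0.04 and 0.34 log2 units, and none passed the test. Their median log2 difference was 0.45 in pair 1 and 0.47 in pair 4, where all 7 were higher in APP/PS1. It was 0.15 in pair 2, −0.11 in pair 3 and 0.01 in pair 5, where 6, 1 and 4 of the 7 were higher. Irgm2, the third regulatory Irg gene, had a log2 difference of 0.18 (SE 0.0939, adjusted p = 0.733), which was 0.11 without replicate 1. Ifi47 was at 0.22 (SE 0.163), and at 0.06 without replicate 4, and Tgtp2 at 0.34 (SE 0.150, adjusted p = 0.666), while Tgtp1 was at 0.07 (SE 0.164) and Gm12185 at 0.04 (SE 0.144). Tgtp1 and Tgtp2 share 81.2% and 86.6% of their 50-base words with other genes, mainly each other, so the split of their counts is uncertain.

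Outside these loci, Gm4951, the neighbour of Iigp1, was at −0.06 (SE 0.151). The very large GTPases Gvin1 and Gm4070 of chromosome 7 were at 0.24 (SE 0.107, adjusted p = 0.666) and 0.07 (SE 0.0604). Gvin1 shared 99.2% and Gm4070 97.8% of its 50-base words with other genes, so their counts are uncertain too.

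**Figure D3:**
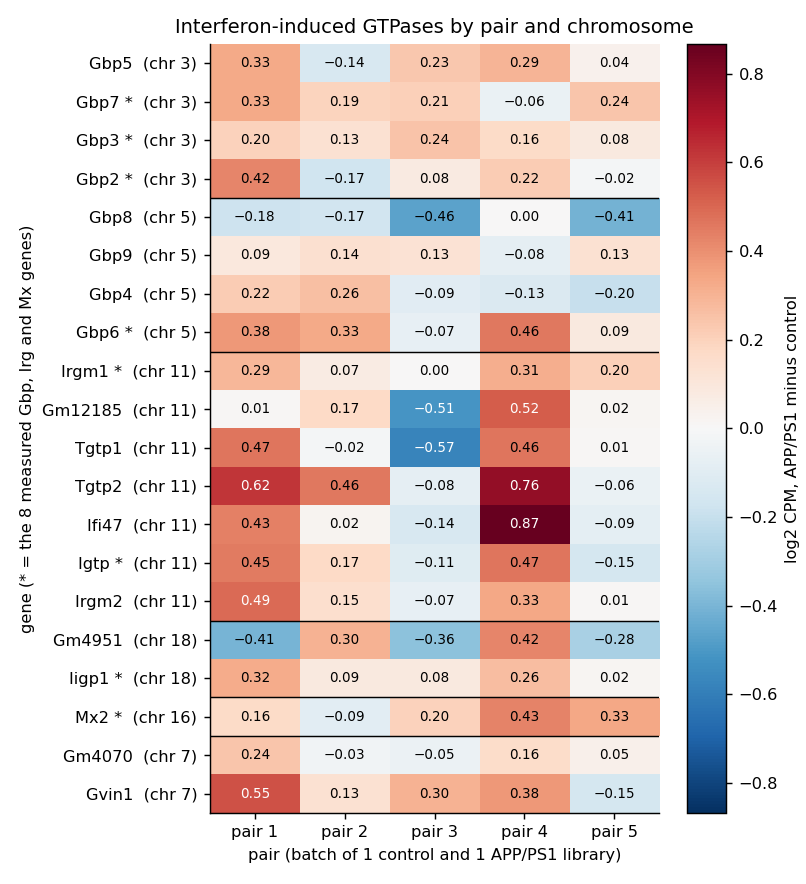
Log2 difference of APP/PS1 minus control in each pair for the 20 measured interferon-induced GTPases, ordered by chromosome, with an asterisk at the 8 genes of the set. Red cells are higher and blue cells lower in APP/PS1. In pairs 1 and 4 all 7 genes of chromosome 11 are higher, and in pair 3 only Irgm1 is, by 0.00241.

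Dynamin-related GTPases that are not induced by interferon were taken as a family comparison. Of 10 such genes (the dynamins, Opa1, the mitofusins and the atlastins), 5 had a mean difference above 0 and 5 below, with a median log2 difference of 0.01 and 0 called. The 1 gene higher in all 5 pairs was Dnm2, the ubiquitous dynamin of endocytosis, at 0.06 (SE 0.0429, adjusted p = 0.815).

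The receptors and transducers upstream of the GTPases were measured in full, 13 of 13 listed, and 0 passed the test. The receptor chains for type I interferon, Ifnar1 and Ifnar2, were at log2 differences of 0.05 (SE 0.0703) and 0.09 (SE 0.0592), and Ifnar2 was at 0.04 without replicate 1. Those for interferon gamma, Ifngr1 and Ifngr2, were at −0.05 (SE 0.0450) and −0.02 (SE 0.0997). Stat2, a transcription factor of the type I pathway, was at 0.15 (SE 0.0495, unadjusted p = 0.0225, adjusted p = 0.569), and Usp18, the negative regulator of the type I receptor, was at 0.16 (SE 0.0532, adjusted p = 0.569). Both were higher in all 5 pairs. Of the 8 interferon regulatory factors, 6 had a mean difference above 0, and Irf9, which binds DNA in a complex with Stat2, was at 0.15 (SE 0.0481, adjusted p = 0.569) and higher in 5 of 5 pairs.

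Target genes of either interferon type were read beside the GTPases. Of 23 measured genes that respond chiefly to type I interferon, 21 had a mean difference above 0, 12 were higher in all 5 pairs and 0 passed the test, with a median log2 difference of 0.17. Ifit1, which binds viral RNA, was at 0.34 (SE 0.0394, adjusted p = 0.238), Ifit3 at 0.31 (SE 0.0588, adjusted p = 0.399) and Isg15, the ubiquitin-like modifier, at 0.34 (SE 0.0724, adjusted p = 0.451). Of 14 measured genes that respond chiefly to interferon gamma, 5 had a mean difference above 0 and 9 below, with a median of −0.05 that turned to 0.02 without replicate 3 and 0.06 without replicate 5. Nos2, the inducible nitric oxide synthase, was lower in all 5 pairs (5.0% of all genes were) at −0.09 (SE 0.0469, adjusted p = 0.729). Of 17 measured partners of the GTPases in autophagy and the inflammasome, 7 were above 0 and 10 below, with a median of −0.02 that turned to 0.01 without replicate 3. Atg12, a conjugation factor of autophagy, was lower in all 5 pairs at −0.07 (SE 0.0439, adjusted p = 0.778). The difference between these lists was not tested.

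**Figure D4:**
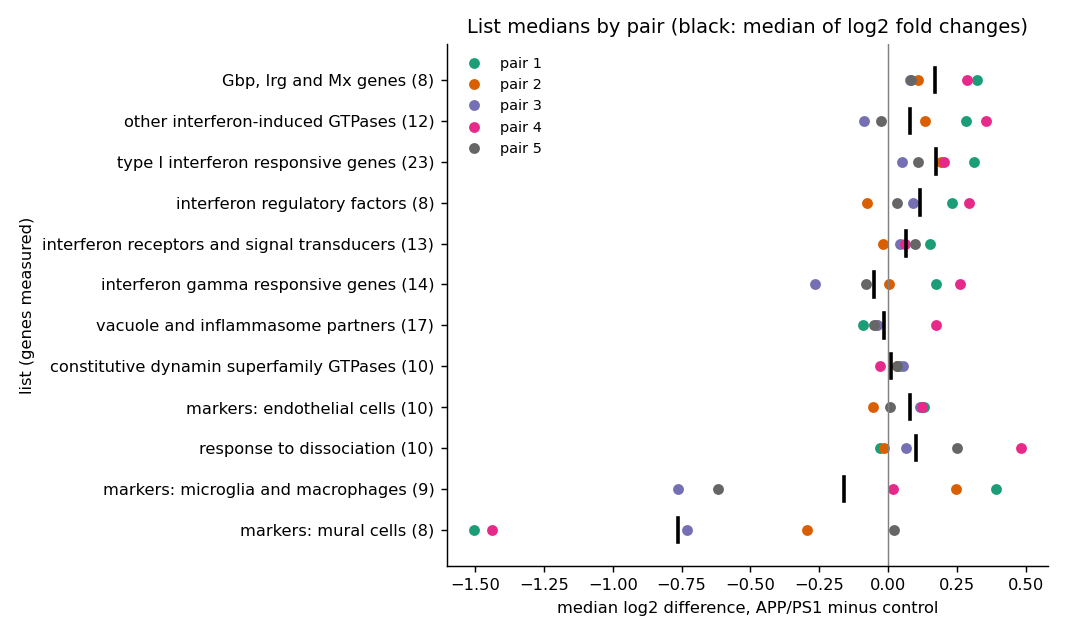
Median log2 difference of APP/PS1 minus control within each pair (coloured points) and median of the log2 fold changes over all pairs (black bars) for 12 lists, with the number of genes measured in brackets. The 8 GTPases are at a median of 0.17, as are the type I interferon genes, and the interferon gamma genes are at −0.05. Mural cell markers are at −0.76.

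Across all 9770 tested genes with a promoter in the table, 350 held the ISRE core. Their median log2 difference was 0.00221, against −0.00589 in genes without it, and 5.43% against 2.67% were higher in all 5 pairs. The 350 genes include the GTPases with the core named below. Of 812 genes with the GAS, 2.09% were higher in all 5 pairs, against 2.84% without it. The median log2 difference was −0.00409 with the GAS and −0.00586 without it. Among the measured interferon-induced GTPases, promoters of 5 of the 8 genes of the set and 6 of the 12 others were searched. The core was held by 5 of these 5 and by 5 of these 6. The 5 of the set had log2 differences from 0.11 to 0.18, and the other 5 (Gbp5, Irgm2, Tgtp1, Tgtp2 and Gm12185) from 0.04 to 0.34.

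The genes whose differences over the 5 pairs were nearest to the median of the 8 GTPases, out of 10746 genes with a mean of at least 2 log2 CPM, were the processed pseudogene Gm13578, Fancc, Slc9a3r2, Tbc1d1 and Lgals9. The root mean square distance over 5 pairs was 0.0550 log2 units for Gm13578 and between 0.0656 and 0.0667 for the other 4. Lgals9, which encodes galectin-9, was at 0.14 (SE 0.0588, adjusted p = 0.637), and the other 4 were higher in all 5 pairs, at 0.14 to 0.21 (adjusted p between 0.537 and 0.592). These directions and sizes follow from the choice, since the median of the GTPases was above 0 in every pair. The GTPases themselves varied in their distance from that median. The share of the ranked genes that lay nearer to it ran from 0.0% for Iigp1 to 13.6% for Gbp7.

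The cell type of the libraries was checked against markers. All 10 endothelial markers were measured, and their summed level was 22714 to 24660 CPM in control and 22594 to 24645 CPM in APP/PS1 libraries. Their median log2 difference was 0.08, in the same direction as that of the GTPases, and it was 0.13, −0.06, 0.12, 0.12 and 0.01 in pairs 1 to 5. With each library centred on these 10 markers, the median of the GTPases was 0.12, all 8 remained above 0, 1 was higher in all 5 pairs and 0 had an unadjusted p under 0.05.

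Markers of other cells also differed between groups or pairs. All 8 mural markers were lower in APP/PS1 BECs at an unadjusted p under 0.05, against 5.91% of all genes. Of the 8, 2 were lower in all 5 pairs, against 5.0% of all genes. Their summed level was 560 to 940 CPM in control and 285 to 554 CPM in APP/PS1 libraries, and this sum was lower in 5 of 5 pairs. Their median log2 difference was −1.50 and −1.44 in pairs 1 and 4, the pairs in which the GTPases had their highest medians, and −0.30, −0.73 and 0.02 in pairs 2, 3 and 5. The summed level of the oligodendrocyte lineage (7 of 8 markers measured, Mag at 0 in a library) was 37.6 to 229 CPM in control and 30.9 to 118 CPM in APP/PS1 libraries. This sum was lower in 4 of 5 pairs and higher in pair 2 (37.6 CPM in control, 118 CPM in APP/PS1). All 7 markers had a lower mean in APP/PS1, 5 of them at an unadjusted p under 0.05 and 4 in all 5 pairs, and the list holds the gene with the smallest adjusted p of the table (0.195). Its median log2 difference was −1.12 over all pairs, −1.77 and −1.34 in pairs 1 and 4, and −0.01, −0.88 and −1.30 in pairs 2, 3 and 5. Markers of microglia and macrophages (9 of 12 measured, none at 0) summed to 58.6 to 69.3 CPM in control and 54.0 to 64.1 CPM in APP/PS1 libraries. Their median log2 difference was 0.39 and 0.25 in pairs 1 and 2, 0.02 in pair 4, and −0.77 and −0.62 in pairs 3 and 5, the pairs in which the Irg genes of chromosome 11 were lowest. Markers of astrocytes (6 of 6 measured) summed to 167 to 205 CPM in control and 169 to 210 CPM in APP/PS1 libraries, but 5 of the 6 were lower in APP/PS1, with a median log2 difference of −0.98 that was −2.84, 0.69, −1.86, −1.21 and −0.00729 in pairs 1 to 5. Markers of neurons (2 of 6 measured) summed to 89.0 to 112 CPM and 92.4 to 116 CPM. Of these 2, 1 was at a log2 difference of −1.97 and lower in all 5 pairs and the other at 0.02, and their median was lowest in pairs 1 and 4, at −1.54 and −1.49. Markers of lymphocytes and granulocytes (4 of 8 measured, Ms4a1 at 0 in a library) summed to 2.47 to 4.80 CPM and 2.08 to 3.99 CPM, and 3 of the 4 were lower in APP/PS1. The 10 genes of the response to dissociation were all above 0, with a median of 0.10, and their pair median was highest in pair 4, at 0.48. The immediate early genes Junb, at 0.27 (SE 0.0858, adjusted p = 0.569), and Ier2, at 0.19 (SE 0.0809, adjusted p = 0.652), were higher in all 5 pairs. The part of these cells and of dissociation in the values of the GTPases was not tested.

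**Figure D5:**
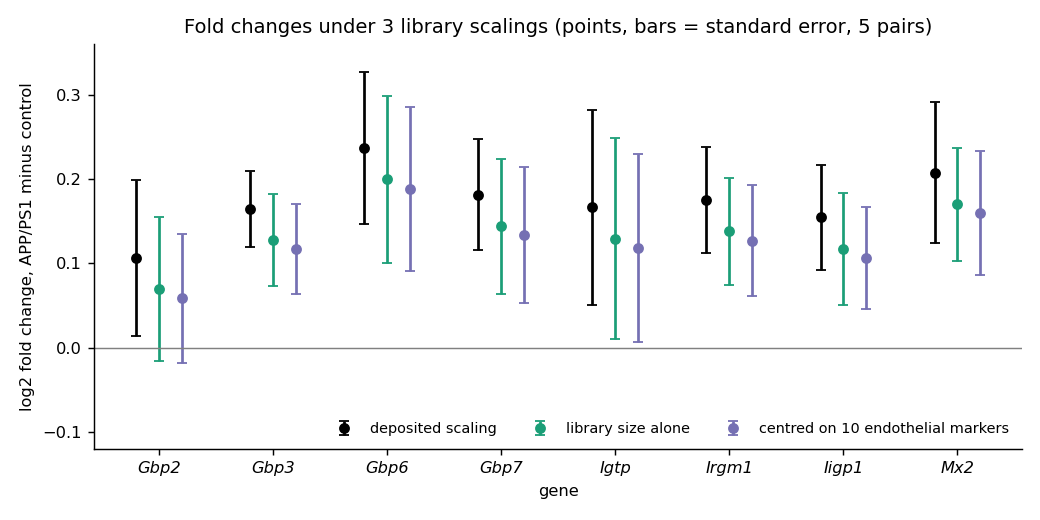
Log2 fold change (points) and standard error (bars, 5 pairs) of each GTPase with the deposited scaling, with library size alone and after centring on 10 endothelial markers. All 24 points lie above 0, and those of the other scalings are lower than those of the deposited scaling in each gene.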

How the data were processed

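Per the submitters' processing notes and the methods, the authors used STAR (build mm10) and HTSeq to count reads, dropped low genes, took log2 CPM with edgeR and corrected for batch; tool versions are not given in the sources used here. The deposited log2 CPM of 14106 genes was used. It converted back to whole adjusted counts (tolerance 0.01 counts, checked below 2000 counts, prior count 3). These totalled 22993426 to 126686149 in control and 22371766 to 114525432 in APP/PS1 libraries, replicate 1 being lowest in both groups. Such counts are no longer reads, so counting error was not computed. The methods describe batch correction after the log2 CPM step, which would not in general leave whole counts. The order of steps or the method behind the deposited values may therefore differ from that description, and is not known.

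Using R 4.3.3 and limma 3.58.1, lmFit and eBayes were fitted to all genes with genotype and replicate number as terms. Two-sided p-values were adjusted over 14106 genes (Benjamini-Hochberg), and 0.05 was the threshold. Residual degrees of freedom were 4. The pairing comes from the labels' batches for replicates 1 to 3 and, for replicates 4 and 5 (1 batch in the labels), from the 5 batches shown by the study. The correction had set pair means nearly equal: over genes, the median SD of pair means was 0.00353, against 0.0863 for the distance of a library from its pair mean. Deviations of paired libraries therefore mirror each other by construction, SDs within groups are understated, and groups that do not overlap (411 genes with APP/PS1 higher) are close to a restatement of pairs that all differ one way (422 genes).

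Genes were matched by Ensembl identifier to GENCODE M21, in which 14106 of 14106 were found. Levels per kb used merged exons. Promoter sequences came from RefSeq, and promoters of chromosome 18 were left out. The genes and lists were chosen with earlier results of these data known. Named genes were all GTPases, up to 3 genes a list (smallest p among those differing the same way in all 5 pairs), the 4 interferon receptor genes, and the 5 nearest in pattern. A further named gene is not reported here. The fits were tested on simulated data. The alternatives were no replicate block, 4 batches, a variance trend, other scalings, a prior count of 0.125, a mean of at least 1 log2 CPM, voom, a threshold of 0.10, and each replicate left out. Centring on endothelial markers was chosen after the values were seen.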

Additional observations from a re-analysis of the deposited data

Results flagged for a closer look

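Gbp9 stood apart in pair 4. The control library of replicate 4 had 7.77 log2 CPM, against 7.66 to 7.68 in the other control libraries, a gap of 0.770 of the group's range. The APP/PS1 library of replicate 4 had 7.69 log2 CPM, against 7.78 to 7.80 in the others, a gap of 0.804 of the range. Both exceed Dixon's critical value of 0.71 for 5 samples. They mirror each other because the mean of each pair had been set nearly equal, so they count as 1 deviation. Over the 40 groups checked (20 GTPases, 2 genotypes), chance gives about 2 flagged groups, and 2 were flagged. The 2 groups of a gene mirror each other, so the 40 checks are not independent.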

How the results depend on the processing

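Over 8 GTPases and 14 alternative fits, all 112 log2 differences were above 0. These are not 112 separate checks. Fits that changed only the block, the variance trend or the gene filter keep the log2 difference of the main fit by construction. Of the 112, 1 had an adjusted p under 0.05. That was Gbp3 without the replicate block, the fit that ignores the pairing, where 1 of the 8 genes was called (adjusted p = 0.00922; range over the fits of Gbp3 0.00922 to 0.929), with 1 of the other GTPases (Gbp8, adjusted p = 0.0485), 2 receptors or transducers, 1 interferon regulatory factor and 8 type I interferon genes. In that fit 1.37% of all genes had an adjusted p under 0.05 and were higher in APP/PS1. Gbp8 was lower, and the share of all genes called lower there was not counted. That fit counts 8 residual degrees of freedom although the pair means had been removed. It also called Stat2, Usp18, Irf9, Ifit1, Ifit3, Isg15, Junb, Fancc, Slc9a3r2 and Tbc1d1, and no other alternative called a named gene.

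With library size alone, 1 GTPase was higher in all 5 pairs and 1 was under an unadjusted p of 0.05. After centring on endothelial markers these counts were 1 and 0. Leaving out 1 replicate in turn, 1 to 3 were under that threshold. The dynamin list changed sign, to a median of −0.0267 with library size alone and −0.0375 after centring, as did the interferon gamma list (0.0239 without replicate 3, 0.0638 without 5) and the partners in autophagy and the inflammasome (0.0138 without replicate 3, 0.000619 with voom). The median of the other GTPases was 0.0547 to 0.156 when 1 replicate was left out, 0.0411 with library size alone and 0.0301 after centring. The median of all genes moved to −0.0409 and −0.0519 under these scalings.

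Of single genes, Gbp4 changed sign to −0.0255 with library size alone and −0.0363 after centring, Gm12185 to −0.00476 after centring and Gm4951 to 0.0218 with voom. Leaving out 1 replicate in turn, log2 differences spanned 0 in Gbp4 (−0.0506 without replicate 2 to 0.0647 without 5), Tgtp1 (−0.0288 without 1 to 0.231 without 3), Gm4951 (−0.184 without 4 to 0.0232 without 1), Gm12185 (−0.0770 without 4 to 0.182 without 3), Ifnar1 (−0.0191 without 1 to 0.0757 without 4) and Ifngr2 (−0.112 without 1 to 0.0368 without 2). Without changing sign, Ifi47 moved to 0.0582 and Ier2 to 0.113 without replicate 4, Irgm2 to 0.105, Ifnar2 to 0.0432, Gm4070 to 0.0317 and Ifngr1 to −0.0734 without replicate 1, and Dnm2 to 0.0403 without replicate 5. The cause was not tested. The median SE of the 8 genes was 0.0746 log2 units over 5 pairs, and no gene passed adjustment, so a missing call does not show equal levels.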
